A study of Mus musculus with 24 samples.

Results

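The 5 genes described here, Rgs14, Amigo2, Pcp4, Map3k15 and Cacng5, are used as markers of hippocampal field CA2 and were taken by name from the 33902 gene symbols of the single-nucleus RNA sequencing (snRNA-seq) table, which held all 5. The question was which cell type label of the ventral hippocampus held them, and whether their levels differed between 2 inbred strains of mice. The series measured nuclei of microdissected ventral hippocampus from untreated adult males, 10 to 16 weeks old, of the strains C57BL/6J (B6) and DBA/2J (D2), with about 2 animals pooled in a library. There were 2 snRNA-seq and 2 single-nucleus ATAC sequencing (snATAC-seq, which counts fragments of open chromatin) libraries per strain. The 16 single-nucleus methylation samples were not analysed here. Each value below comes from 1 sum of unique transcript counts, or of fragments in a peak, over the nuclei of 1 label in 1 library, and is given as CPM, the count divided by the total of that label in that library and scaled to 1000000. The libraries are called 2 and 3 in each strain, as in the tables. In the strain tests within a label, p-values measure the spread between these pooled libraries. Tests between labels and of the interaction had a library term unless said otherwise. Their p-values measure the spread of the labels that is left within libraries.

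CA2 is a narrow field between CA3 and CA1. Its pyramidal neurons are known for weak long-term potentiation at the synapses they receive from CA3, for a strong entorhinal input and for a part in social memory. Rgs14 encodes a regulator of G protein signalling that restrains potentiation in CA2. Cacng5 encodes an auxiliary subunit of AMPA receptors. Pcp4 encodes a small peptide that binds calmodulin. Map3k15 encodes a kinase of the MAP kinase cascade, and Amigo2 a cell adhesion protein with leucine-rich repeats. Pcp4 is also known from dentate granule cells, and Rgs14 from CA1 neurons, so that the genes mark CA2 best in combination.

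The RefSeq promoters of 3 of the 5 genes were at hand in build GRCm38.p6, and those of the pair of genes whose RNA differed most between labels or strains are shown here, from 250 bases before to 50 after the start. Capitals mark a GC box (GGGCGG) or a CCAAT box (CCAAT) on either strand, and no marked stretch overlaps another. The Pcp4 promoter lies at chr16:96467356-96467655 on the plus strand and the Amigo2 promoter at chr15:97247238-97247537 on the minus strand.
Pcp4: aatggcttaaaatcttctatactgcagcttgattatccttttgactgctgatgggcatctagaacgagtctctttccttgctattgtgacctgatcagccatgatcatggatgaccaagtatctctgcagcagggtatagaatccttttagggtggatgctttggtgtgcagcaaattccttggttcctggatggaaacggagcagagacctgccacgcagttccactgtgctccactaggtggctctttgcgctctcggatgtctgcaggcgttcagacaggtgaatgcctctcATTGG
Amigo2: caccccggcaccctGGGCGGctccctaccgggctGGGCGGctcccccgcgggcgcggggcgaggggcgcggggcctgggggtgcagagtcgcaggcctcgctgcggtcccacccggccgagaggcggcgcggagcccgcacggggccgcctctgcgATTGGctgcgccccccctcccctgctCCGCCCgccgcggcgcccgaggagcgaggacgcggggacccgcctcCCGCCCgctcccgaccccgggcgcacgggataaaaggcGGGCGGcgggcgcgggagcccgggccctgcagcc
The Pcp4 promoter held 6 CpG dinucleotides and no GC box, and the Amigo2 promoter held 46 CpG and 5 GC boxes. Among all 32851 RefSeq promoters of this length the median was 7 CpG, 98.4% had fewer than Amigo2, and 35.7% held a GC box. Both promoters held 1 CCAAT box, as 37.4% of all promoters did. Neither held the TATA box letters TATAAA, found in 13.6% of promoters.

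None of the labels in the tables is called CA2. The study names a cell type Exc-CA2 in its methylation data, which were not analysed here. The snRNA-seq values cover 14 labels, of which 8 are excitatory (Exc-DG for the dentate gyrus, Exc-CA3, 3 CA1 labels, Exc-ENT, Exc-Gpc6 and Exc-Cdh12). The neuronal labels Inh-CGE, Inh-Lamp5 and CR-CR were not analysed here, so that a highest or next label is named among the 14 only. The total of an excitatory label in a library ran from 526014 counts in Exc-Cdh12 to 11352265 in Exc-DG, so that a gene in Exc-Cdh12 was measured least precisely. The labels were checked against marker lists. Of 6 dentate granule cell markers, 6 had their highest mean in Exc-DG. Of 6 CA3 markers, 5 had theirs in Exc-CA3, and of 7 CA1 markers, 6 had theirs in 1 of the 3 CA1 labels. Exc-CA3 also had the highest excitatory mean of 3 of 5 mossy cell markers, whose summed level there was 59.1 to 75.6 CPM over the 4 libraries, against 44.3 to 54.8 CPM in Exc-DG. That sum overlapped those of Exc-Cdh12 (38.0 to 77.7 CPM) and of the CA1 labels (45.4 to 67.6 CPM). Singly, Calb2, Drd2 and Csf2rb2 were higher in Exc-CA3 than in Exc-DG, by 4.08, 4.08 and 4.92 on the log2 scale. Over the CA1 labels they were higher by 4.17, 1.92 and 4.46 (edgeR quasi-likelihood test, adjusted p under 0.05 in each). Ajap1 did not pass in either comparison (-0.07 and -0.18), and Gal had too few counts to be tested. The part of mossy cells in the values of Exc-CA3 was not tested. In a summed label, fewer CA2 nuclei and less RNA per nucleus cannot be told apart.

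The 5 genes did not share a highest label. By CPM, Amigo2 was highest in Exc-CA3, Rgs14 and Pcp4 in Exc-DG, Cacng5 in Exc-ENT and Map3k15 in NN-Astro, the astrocyte label. Counted per 100 nuclei, Rgs14 was highest in Exc-CA1-Galntl6 (14.6, against 13.4 in Exc-DG). By that measure Cacng5 was highest in Inh-MGE (6.60, against 6.26 in Exc-ENT) and Map3k15 in Exc-CA1-Fras1 (7.30, against 6.88 in NN-Astro). Across the 14 labels the Pearson correlation of log2(mean CPM + 1) between pairs of the 5 genes ran from -0.52 for Rgs14 with Map3k15 to 0.17 for Amigo2 with Pcp4. These points share their libraries, and the correlations are given as a description.

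**Figure D1:**
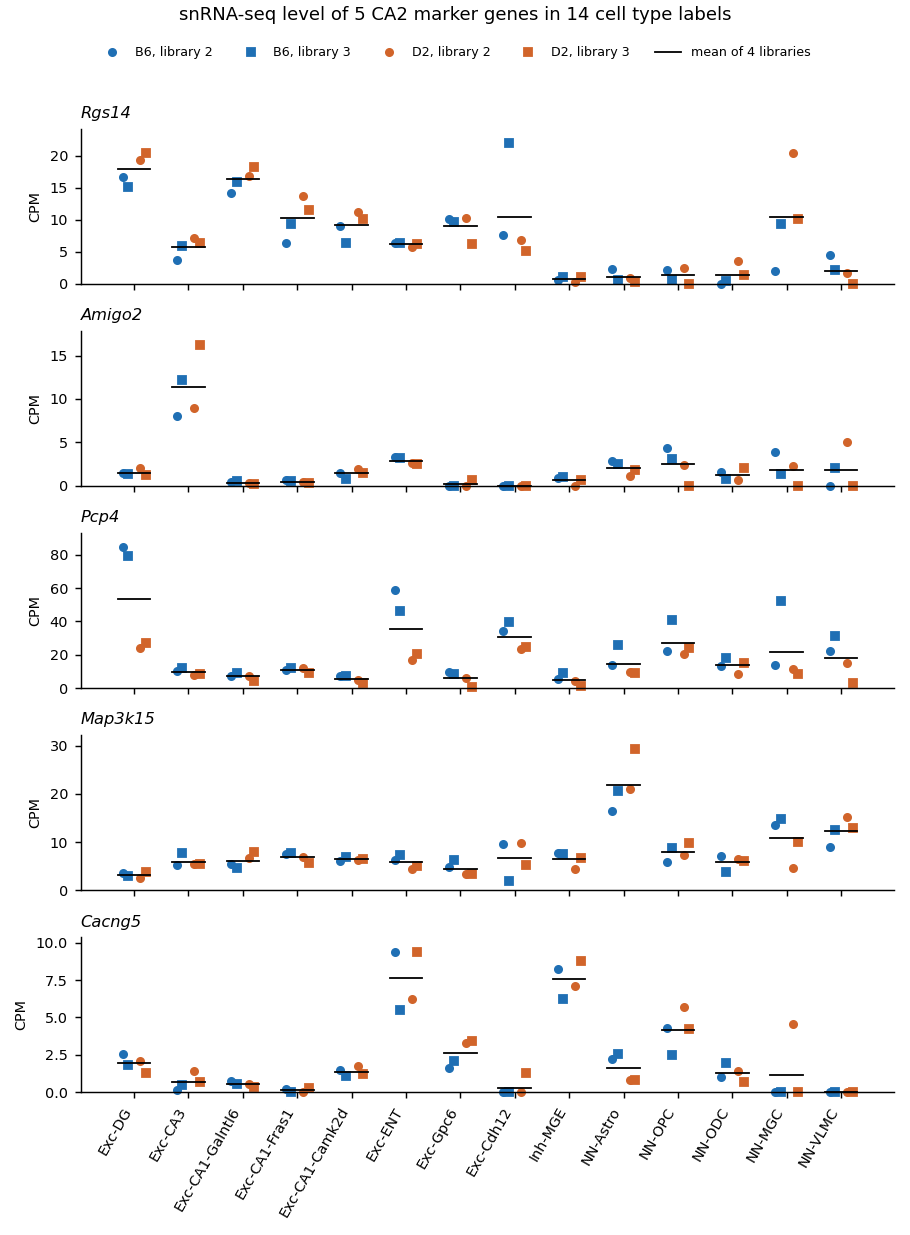
Level of each of the 5 genes (vertical axes, CPM, each panel with its own scale from 0) in 14 labels (horizontal axis), with 1 point per library and a bar at the mean of 4 libraries. Amigo2 stands at 8.06 to 16.2 CPM in Exc-CA3 and at most at 5.06 CPM in any library of another label shown, while the other 4 genes have their highest mean elsewhere.

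Amigo2 was the gene of the 5 that singled out Exc-CA3. Its level there was 8.06 and 12.2 CPM in B6 libraries 2 and 3, and 8.96 and 16.2 CPM in D2 libraries 2 and 3, from 58, 72, 50 and 69 counts (mean 11.4 ± 3.68 CPM, SD, n = 4). All 4 values lay above every value of the other 13 labels analysed, the next mean being 2.89 ± 0.383 CPM in Exc-ENT. Of the 397 Amigo2 counts in excitatory labels, 62.7% were in Exc-CA3, 14.9% in Exc-DG, 12.3% in Exc-ENT and 9.82% in the 3 CA1 labels together. Whether those of Exc-CA3 came from CA2 or CA3 neurons was not tested, since a label is summed over its nuclei. No Amigo2 count was found in the 4 Exc-Cdh12 libraries. The log2 fold change of Exc-CA3 over the mean of the CA1 labels was 4.01 ± 0.22 (SE, edgeR quasi-likelihood test, adjusted p = 5.45e-16), and over Exc-DG it was 2.82 ± 0.22 (edgeR, adjusted p = 2.73e-12). Within B6 libraries alone the difference from the CA1 labels was 3.80 ± 0.30 on the log2 scale, and within D2 libraries alone 4.37 ± 0.34. The start of Amigo2 (chr15:97244125-97247287, minus strand, GRCm38) overlaps that of Pced1b on the opposite strand.

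Rgs14 had its lowest excitatory mean in Exc-CA3 (5.80 ± 1.46 CPM, SD, n = 4), where its values overlapped those of Exc-ENT (6.17 ± 0.277 CPM). This rank rested on the B6 libraries. Within D2 the Exc-CA3 mean (6.75 CPM) lay above those of Exc-ENT and Exc-Cdh12. Counted per 100 nuclei, Rgs14 was lowest among the excitatory labels in Exc-ENT (5.16, against 5.89 in Exc-CA3). Its level in Exc-CA3 was 3.75, 5.95, 7.17 and 6.33 CPM in B6 libraries 2 and 3 and D2 libraries 2 and 3. In Exc-DG the same libraries held 16.7, 15.1, 19.4 and 20.5 CPM, and in Exc-CA1-Galntl6 they held 14.1, 16.0, 16.9 and 18.3 CPM. The values of Exc-DG and Exc-CA1-Galntl6 overlapped, and both labels lay wholly above Exc-CA3. The other CA1 labels, Exc-CA1-Fras1 and Exc-CA1-Camk2d, had means of 10.2 and 9.18 CPM. In Exc-Cdh12 the value of 22.0 CPM in B6 library 3, from 24 counts, stood apart from 5.14 to 7.60 CPM in the other libraries. The log2 fold change of Exc-CA3 was -0.99 ± 0.18 against the CA1 labels (edgeR, adjusted p = 1.93e-05) and -1.65 ± 0.18 against Exc-DG (edgeR, adjusted p = 1.01e-09). Outside the excitatory labels, Rgs14 had a mean of 10.5 CPM in the microglial label NN-MGC, from 1 to 9 counts a library, and between 0.715 and 2.05 CPM elsewhere. Rgs14 lies at chr13:55369732-55384687 on the plus strand.

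Pcp4 was highest in Exc-DG, and this order depended on the strain. Its level in Exc-DG was 84.3 and 78.9 CPM in the B6 libraries and 24.3 and 27.1 CPM in the D2 libraries. Exc-ENT followed with 58.7 and 46.5 CPM in B6 and 17.0 and 20.3 CPM in D2. Exc-Cdh12 held 34.2 and 39.4 CPM in B6 and 23.6 and 24.4 CPM in D2, so that within D2 its values overlapped those of Exc-DG. In Exc-CA3 the level was 10.4 and 12.2 CPM in B6 and 7.52 and 8.67 CPM in D2, beside means of 5.52 to 11.0 CPM in the CA1 labels. Non-neuronal labels held 13.7 to 26.8 CPM by their means, above Exc-CA3 and the CA1 labels. Per 100 nuclei they held 3.71 to 10.26 counts, beside 10.31 in Exc-CA3 and 5.23 to 11.55 in the CA1 labels. The log2 fold change of Exc-CA3 over Exc-DG was -2.44 ± 0.19 (edgeR, adjusted p = 6.33e-13), and it was -2.84 ± 0.11 within B6 and -1.68 ± 0.20 within D2. Against the CA1 labels it was 0.35 ± 0.23 (edgeR, adjusted p = 0.258). Igsf5 (chr16:96361794-96525580) lies on the same strand as Pcp4 (chr16:96467606-96525793, plus strand) and covers it except for its far end. Igsf5 had 24 counts in B6 and 0 in D2 over the 14 labels. The effect of this overlap on the Pcp4 counts of either strain was not tested.

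By CPM, Map3k15 was highest in the astrocyte label. Per 100 nuclei it was not, with 6.88 counts in NN-Astro, 7.30 in Exc-CA1-Fras1 and 6.21 in Exc-CA3. NN-Astro held 16.4 and 20.5 CPM in the B6 libraries and 21.1 and 29.3 CPM in the D2 libraries, and no other of the 14 labels reached these values. The next means were 12.3 CPM in NN-VLMC, the vascular and leptomeningeal label, and 10.8 CPM in NN-MGC. Excitatory means lay between 3.14 CPM in Exc-DG and 6.91 CPM in Exc-CA1-Fras1. Exc-CA3, with 5.14, 7.81, 5.37 and 5.39 CPM, overlapped each CA1 label, and the log2 fold change between them was -0.12 ± 0.18 (edgeR, adjusted p = 0.640). Both Exc-CA3 and the CA1 labels were higher than Exc-DG, by 0.91 ± 0.22 and 1.03 ± 0.18 on the log2 scale (edgeR, adjusted p = 0.000627 and 7.22e-06). Pdha1 overlaps the far end of Map3k15 (chrX:159988433-160123351, plus strand) on the opposite strand.

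Cacng5 was nearly absent from Exc-CA3, with 1, 3, 8 and 3 counts in the 4 libraries (0.139 to 1.43 CPM). Exc-ENT held 9.38 and 5.49 CPM in B6 and 6.23 and 9.37 CPM in D2, and Inh-MGE, the label of inhibitory neurons from the medial ganglionic eminence, held 8.21, 6.24, 7.12 and 8.77 CPM. These labels overlapped each other. Inh-MGE lay above every remaining label analysed, while the lowest Exc-ENT value was within the range of NN-OPC, the label of oligodendrocyte precursors (2.50 to 5.71 CPM). Of 276 Cacng5 counts in excitatory labels, 45.3% were in Exc-ENT, 27.9% in Exc-DG and 5.43% in Exc-CA3. The log2 fold change of Exc-CA3 was -1.57 ± 0.39 against Exc-DG (edgeR, adjusted p = 0.000939) and 0.45 ± 0.47 against the CA1 labels (edgeR, adjusted p = 0.507). The former rested on B6 library 2, without which it was -0.99 with an adjusted p of 0.0581. Within B6 it was -2.76 ± 0.60 (adjusted p = 0.000541) and within D2 -0.62 ± 0.55 (adjusted p = 0.395), and with no library term in the fit its adjusted p was 0.0578. Cacng5 lies at chr11:107874605-107915055 on the minus strand.

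**Figure D2:**
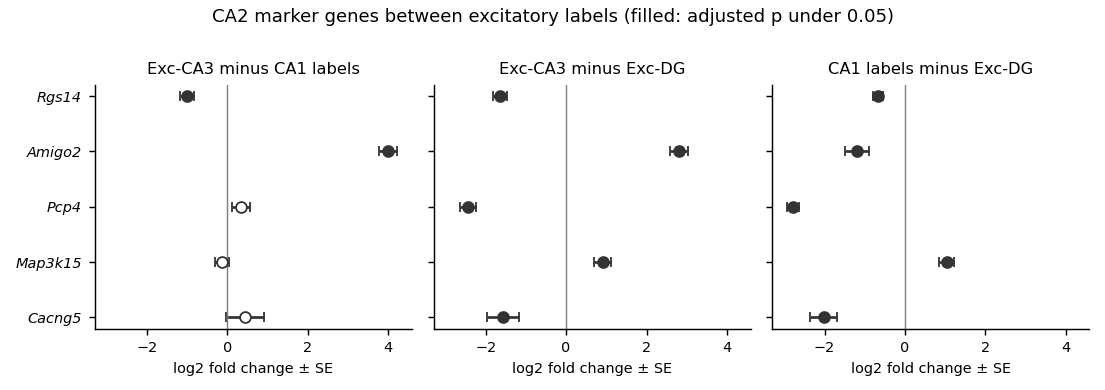
Log2 fold change of each gene (horizontal axes) between Exc-CA3, the mean of the CA1 labels and Exc-DG, over 4 libraries. Bars show ± SE, derived from the edgeR F statistic, and filled points an adjusted p under 0.05. Amigo2 lies to the right of 0 for Exc-CA3 in both of its panels (4.01 and 2.82), and Rgs14 to the left (-0.99 and -1.65).

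Counted together, 1 of the 5 genes was higher and 1 lower in Exc-CA3 than in the CA1 labels, beside 19.3% and 17.4% of all 17479 genes tested. Against Exc-DG, 2 were higher (Amigo2 and Map3k15) and 3 lower (Rgs14, Pcp4 and Cacng5), beside 26.2% and 25.9% of all genes. Against the mean of Exc-ENT, Exc-Gpc6 and Exc-Cdh12, Amigo2 was higher and Rgs14 and Pcp4 were lower, beside 27.0% and 24.2% of all genes. For Amigo2 no fold is given in that comparison because Exc-Cdh12 held no count. The Rgs14 value of -0.54 ± 0.21 in that comparison (edgeR, adjusted p = 0.0294) rested on the B6 libraries: it was -0.37 without library 2, -0.26 without library 3 and 0.04 within D2, none of them past the threshold. The CA1 labels were higher than Exc-DG in Map3k15 and lower in the other 4 genes, beside 27.4% higher and 28.8% lower among all genes. The median log2 fold change of the 5 genes in Exc-CA3 was 0.35 against the CA1 labels and -1.57 against Exc-DG, where the medians of all genes were 0.0021 and -0.01.

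A longer list of 12 other genes known from CA2 was counted in the same fits, of which 10 had enough counts. Against the CA1 labels, 6 were higher in Exc-CA3, 2 lower (Ntf3 and Ptpn5) and 2 did not pass, beside 19.3% higher and 17.4% lower among all genes, with a median log2 fold change of 0.63 (0.0021 for all genes). Against Exc-DG, 4 were higher, 3 lower and 3 did not pass, beside 26.2% and 25.9%, with a median of -0.05 (-0.01 for all genes). Against the other excitatory labels, 7 were higher, 2 lower and 1 did not pass, beside 27.0% and 24.2%, with a median of 0.88 (0.01 for all genes). Those higher than in both the CA1 labels and Exc-DG were Actn2, Necab2 and Fgf2. Actn2 encodes an actinin of the dendritic spine, Necab2 a calcium-binding protein and Fgf2 a growth factor. Actn2 was at 69.5, 62.5, 72.6 and 76.2 CPM in the 4 Exc-CA3 libraries, above all values of the other excitatory labels, and its log2 fold change over the CA1 labels was 1.43 ± 0.08 (edgeR, adjusted p = 2.90e-16). Necab2 was at 33.7 to 39.2 CPM in Exc-CA3 and also at 35.7 to 39.5 CPM in Exc-Gpc6, with a log2 fold change over the CA1 labels of 1.00 ± 0.09 (edgeR, adjusted p = 2.76e-11). Fgf2 was at 2.86 ± 1.41 CPM in Exc-CA3, and its log2 fold change over the CA1 labels was 0.74 ± 0.25 (edgeR, adjusted p = 0.0175). Ntf3, a neurotrophin, had its lowest excitatory mean in Exc-CA3 (1.16 ± 0.735 CPM) and was at 73.4 ± 2.26 CPM in Exc-DG.

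For Rgs14, Map3k15, Cacng5 and Amigo2 the most alike patterns over the 14 labels were sought among 12419 genes that reached 20 CPM in a label. Rgs14 was most like Ptk2b (Pearson r = 0.94), Arf3 (0.93) and Itpka (0.91), and Map3k15 most like 0610005C13Rik (0.93), Gpatch2 (0.91) and Azin1 (0.91). Cacng5 was most like Armc8 (0.86), Atp6v0e2 (0.81) and Simc1 (0.79). The nearest genes were less alike for Amigo2, with 2010320O07Rik (0.74), Gm8832 (0.73) and Mndal (0.72).

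The strains were compared label by label. Over the 14 labels, 36 pairs of gene and label had enough counts to be tested, and 5 pairs passed (edgeR, adjusted p under 0.05), beside 23.8% of all pairs of gene and label. Many gene symbols had counts in 1 strain only, and among symbols counted in both strains 15.9% of pairs passed. Of the calls over all symbols 58.3% were higher in D2, and of those among symbols counted in both strains 42.9%. In Exc-CA3, 0 of the 4 genes tested passed, beside 32.1% of all genes and 21.9% of genes counted in both strains. An unadjusted p under 0.05 was found for 1 of the 4, Pcp4, and for 6655 of all 16337 genes. Amigo2 differed there by 0.26 ± 0.26 on the log2 scale (D2 minus B6, edgeR, adjusted p = 0.499), with overlapping strains, and Rgs14 by 0.49 ± 0.29 (edgeR, adjusted p = 0.228), with the D2 values above those of B6. The Amigo2 difference was 0.64 without D2 library 2, with an adjusted p of 0.0481, and -0.17 without D2 library 3. Pcp4 differed by -0.51 ± 0.22 in Exc-CA3 (edgeR, adjusted p = 0.0874), with both D2 values below both B6 values. Of the 9 other CA2 genes tested in Exc-CA3, Gsto1 was higher in D2 by 1.43 ± 0.36 and Fgf2 lower by 1.33 ± 0.38 on the log2 scale (edgeR, adjusted p = 0.00534 and 0.0114). These differences were not particular to Exc-CA3. Both genes also passed in Exc-DG (0.91 ± 0.28 and -1.36 ± 0.43) and in Exc-CA1-Galntl6 (1.19 ± 0.34 and -1.98 ± 0.45). Fgf2 passed in NN-Astro as well (-2.34 ± 0.31), while Gsto1 passed in no other label tested.

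**Figure D3:**
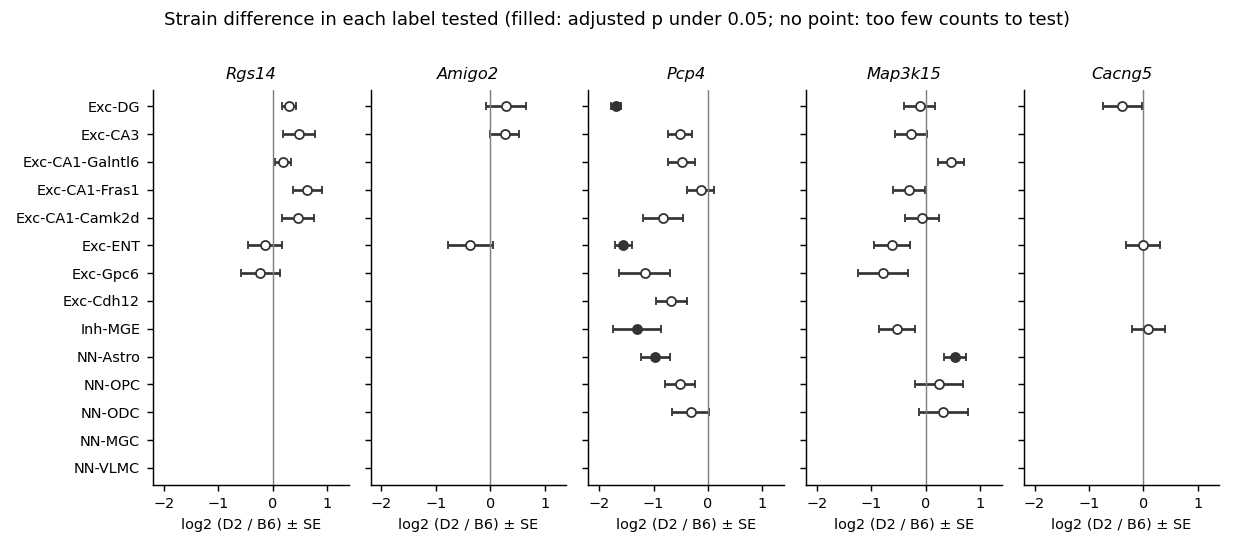
Strain difference of each gene (horizontal axes, log2 of D2 over B6, 2 libraries per strain) in each label with enough counts for a test. Bars show ± SE, derived from the edgeR F statistic, and filled points an adjusted p under 0.05. Pcp4 lies left of 0 in all 12 labels tested and farthest in Exc-DG (-1.69), and in Exc-CA3 no gene has a filled point.

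Pcp4 made up 4 of the 5 called pairs and was lower in D2 in each. The log2 difference in Exc-DG was -1.69 ± 0.10 (edgeR, adjusted p = 4.88e-09), in a label where 36.0% of all genes passed. In Exc-ENT it was -1.55 ± 0.16 (edgeR, adjusted p = 3.21e-10), beside 28.0% of all genes. The B6 and D2 values of both labels did not overlap, and the call held in both under DESeq2 and without each library in turn. The summed level of the 6 granule cell markers in Exc-DG was 2530 CPM in B6 and 2364 CPM in D2 by the strain means. Mbp, a myelin gene that marks oligodendrocytes, had lower values in both D2 libraries than in both B6 libraries of the same labels, with strain means (B6, then D2) of 134 and 103 CPM in Exc-DG, 62.1 and 38.8 CPM in Exc-ENT, 46.2 and 36.4 CPM in Inh-MGE, and 155 and 66.0 CPM in NN-Astro. It was also lower in both D2 libraries in Exc-CA3 (61.3 and 44.9 CPM). Mog, another oligodendrocyte marker, had strain means in the same order of 2.99 and 2.77 CPM in Exc-DG, 3.54 and 1.78 CPM in Exc-ENT, 5.04 and 7.12 CPM in Inh-MGE, and 7.50 and 2.48 CPM in NN-Astro. The part of oligodendrocyte RNA in the Pcp4 differences was not tested. The fitted value was below 0 in all 12 labels where Pcp4 was tested, from -1.69 to -0.13, though these labels share 4 libraries. The calls in Inh-MGE (-1.30 ± 0.44, edgeR, adjusted p = 0.0479, beside 21.0% of all genes) and NN-Astro (-0.97 ± 0.27, edgeR, adjusted p = 0.00460, beside 26.2%) were lost under DESeq2, with adjusted p-values of 0.315 and 0.184. In Inh-MGE the value was -0.85 without B6 library 3 and -0.81 without D2 library 3, and in NN-Astro it was -0.47 without B6 library 3, none of them past the threshold. The fifth pair was Map3k15 in NN-Astro, higher in D2 by 0.54 ± 0.21 (edgeR, adjusted p = 0.0493). Its adjusted p was 0.463 under DESeq2, and without B6 library 2 or D2 library 3 the value was 0.41 or 0.29 and did not pass.

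Whether the Pcp4 difference varied between fields was tested with an interaction term. The D2 minus B6 difference was less negative in Exc-CA3 than in Exc-DG by 1.17 ± 0.27 on the log2 scale (edgeR, adjusted p = 0.00961), the 1 gene of the 5 that passed, beside 2.03% of all genes. It was 0.99, 1.22 and 1.16, with adjusted p-values of 0.0630, 0.0834 and 0.108, without B6 library 2, D2 library 2 and D2 library 3. The CA1 labels differed from Exc-DG by 1.22 ± 0.21 (edgeR, adjusted p = 0.000188), again 1 gene of the 5, beside 2.56% of all genes, and without D2 library 2 by 0.79 (adjusted p = 0.306). Between Exc-CA3 and the CA1 labels 0 of the 5 genes passed, beside 0.839% of all genes, with a Pcp4 value of -0.06 ± 0.30. An unadjusted p under 0.05 was found for 0 of the 5 and for 1466 of all 18707 genes.

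Each gene had 1 snATAC-seq peak that overlapped the 1000 bases before to 100 after its start. The Amigo2 promoter peak (chr15:97246784-97248180), which also covers the start of Pced1b, was at 16.9, 17.7, 18.7 and 20.6 CPM in Exc-CA3, above the 6.83 to 14.9 CPM of the CA1 labels. It was no higher than in Exc-DG, where it was at 18.3 to 22.6 CPM. The log2 fold change over the CA1 labels was 0.68 ± 0.07 (edgeR, adjusted p = 7.15e-17) and over Exc-DG -0.29 ± 0.07 (edgeR, adjusted p = 0.000356), the second being -0.12 and not past the threshold (adjusted p = 0.142) with RLE normalization, which moved the median of all peaks from -0.04 to 0.13. A peak 6873 bases downstream of the Amigo2 start (chr15:97239977-97240852), chosen after its values were seen, was at 8.62 to 10.9 CPM in Exc-CA3 and 6.99 to 8.45 CPM in Exc-DG, and at most 3.02 CPM in any library of another excitatory label. Its log2 fold change in Exc-CA3 was 2.56 ± 0.14 over the CA1 labels (edgeR, adjusted p = 9.48e-40) and 0.15 ± 0.13 over Exc-DG (edgeR, adjusted p = 0.307), so that the difference from Exc-DG did not pass.

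The Rgs14 promoter peak (chr13:55368888-55370241) was lowest in Exc-CA3, at 8.67 to 10.8 CPM, below every value of the other excitatory labels. Its log2 fold change was -0.78 ± 0.08 against the CA1 labels and -0.84 ± 0.08 against Exc-DG (edgeR, adjusted p = 2.50e-18 and 2.47e-17). The Pcp4 promoter peak (chr16:96467256-96469278) followed the order Exc-DG, Exc-ENT, Exc-CA3, with means of 38.2, 26.9 and 18.1 CPM. Its log2 fold change in Exc-CA3 was 0.29 ± 0.07 over the CA1 labels (edgeR, adjusted p = 0.000110) and -1.22 ± 0.07 over Exc-DG (edgeR, adjusted p = 4.12e-38). The Cacng5 promoter peak (chr11:107914694-107915208) was highest in Exc-ENT (6.62 ± 0.902 CPM) and Exc-Gpc6 (5.76 ± 1.79 CPM), and in Exc-CA3 it was lower than in Exc-DG by 0.61 ± 0.20 on the log2 scale (edgeR, adjusted p = 0.00631). Without B6 library 2 or 3 that Cacng5 value was -0.45 or -0.35 and did not pass. The Map3k15 promoter peak (chrX:159987574-159988830) lay between means of 1.92 and 3.44 CPM. In all, 3 of the 5 promoter peaks passed between Exc-CA3 and the CA1 labels, beside 52.2% of all 300819 peaks, and 4 of 5 between Exc-CA3 and Exc-DG, beside 56.9%. Between the CA1 labels and Exc-DG 3 of 5 passed, beside 62.3% of all peaks.

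**Figure D4:**
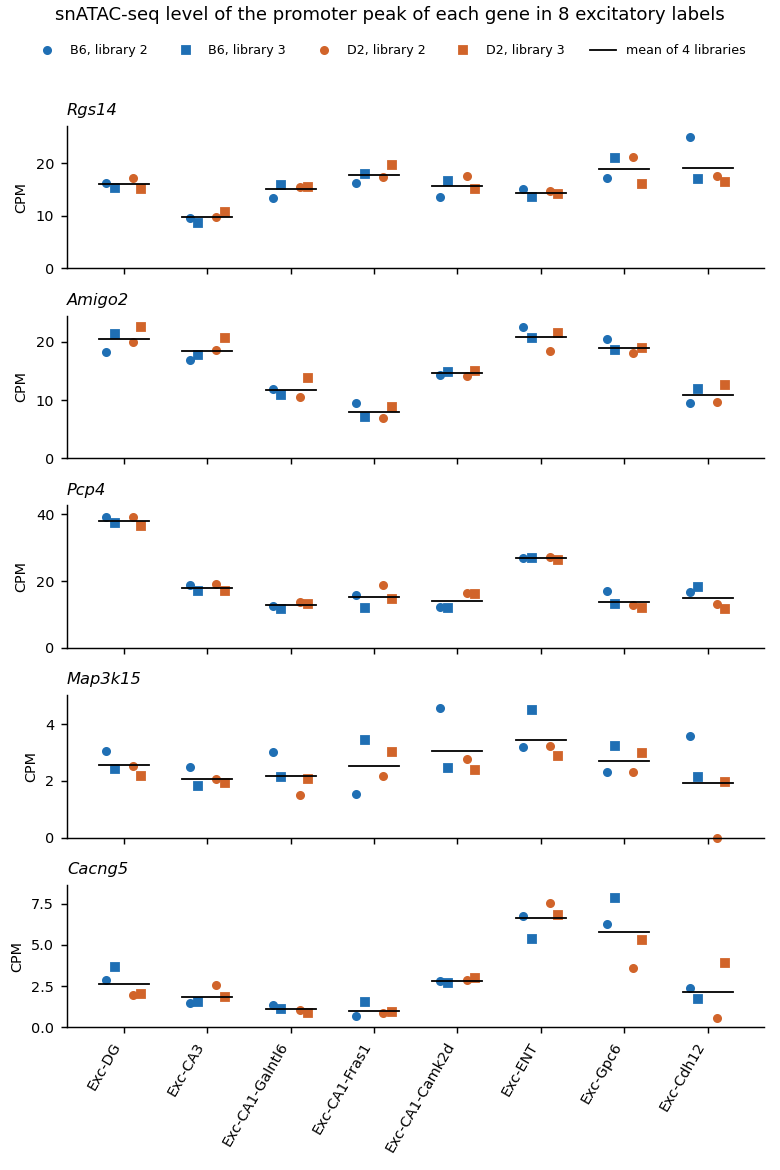
Level of the promoter peak of each gene (vertical axes, CPM, each panel with its own scale from 0) in 8 excitatory labels (horizontal axis), with 1 point per snATAC-seq library and a bar at the mean of 4 libraries. The Amigo2 peak in Exc-CA3 (16.9 to 20.6 CPM) lies above the CA1 labels. Its values overlap those of Exc-DG and reach below the lowest of them. The Pcp4 peak is highest in Exc-DG.

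Between the strains, 0 of the 5 promoter peaks passed in Exc-CA3, beside 5.03% of all peaks. An unadjusted p under 0.05 was found for 2 of the 5, those of Amigo2 and Cacng5, and for 46114 of all 298129 peaks. The tests in Exc-DG and Exc-ENT were added after the Pcp4 values were seen. The Pcp4 promoter peak was at 39.3 and 37.6 CPM in B6 and 39.3 and 36.6 CPM in D2 in Exc-DG, a log2 difference of 0.02 ± 0.07 (edgeR, adjusted p = 0.933). In Exc-ENT it was at 27.1 and 27.0 CPM in B6 and 27.3 and 26.3 CPM in D2, a difference of -0.01 ± 0.12 (edgeR, adjusted p = 0.994). At this peak the strains overlapped in both labels, where the RNA values did not. In Exc-DG 1 of the 5 promoter peaks passed, that of Cacng5 (-0.64 ± 0.21, edgeR, adjusted p = 0.0463), beside 5.97% of all peaks. It was -0.46, -0.61 and -0.68 without B6 library 3, D2 library 2 and D2 library 3, and did not pass without any of these or under DESeq2. In Exc-ENT 0 of 5 passed, beside 1.39% of all peaks, and 0 of 5 had an unadjusted p under 0.05, beside 22937 of all 252421 peaks.

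Of the peaks of the 5 genes outside the promoters, 3 of 29 passed between strains in Exc-CA3, 3 of 29 in Exc-DG and 1 of 28 in Exc-ENT. Among all peaks, 5.03%, 5.97% and 1.39% passed in these labels. A peak 17184 bases downstream of the Rgs14 start, beyond the end of the gene (chr13:55386684-55387149), was lower in D2 in all 3 labels. Its level in Exc-CA3 in B6 was 1.63 and 1.90 CPM, against 0.604 and 0.376 CPM in D2, from 29, 27, 10 and 8 counts, and the log2 difference was -1.82 ± 0.38 there (edgeR, adjusted p = 0.000250). It was -0.93 ± 0.29 in Exc-DG and -1.53 ± 0.42 in Exc-ENT (edgeR, adjusted p = 0.0312 and 0.0305). A peak inside Pcp4, 13390 bases downstream of its start (chr16:96480614-96481379), was lower in D2 in Exc-CA3 (-0.97 ± 0.26) and in Exc-DG (-0.70 ± 0.20, edgeR, adjusted p = 0.00999 and 0.0153), as 1 of 12 other peaks of the gene in each label. In Exc-ENT its difference of -0.89 ± 0.27 did not pass (edgeR, adjusted p = 0.0803). Inside Cacng5, a peak 15959 bases downstream of the start (chr11:107898763-107899430) was higher in D2 in Exc-CA3 by 0.54 ± 0.16 (edgeR, adjusted p = 0.0272), and in Exc-DG a peak upstream of the start, at -4807 bases from it (chr11:107919572-107920153), was lower in D2 (-0.57 ± 0.16, edgeR, adjusted p = 0.0122). Calls between strains in Exc-CA3 depended on both D2 libraries, since 245 and 123 of all peaks passed without D2 library 2 and 3, against 15008 with all 4 libraries.

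**Figure D5:**
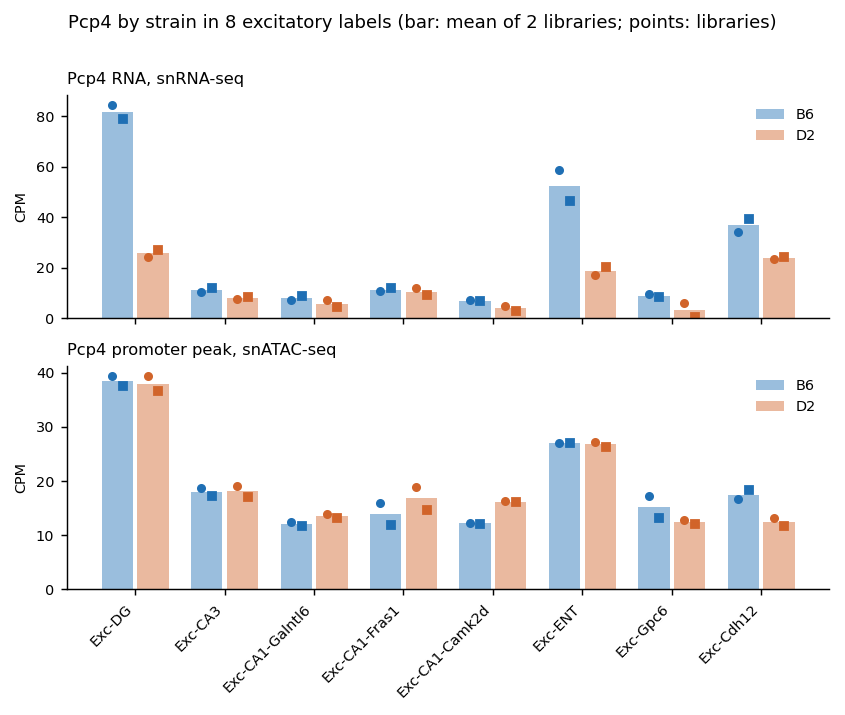
Pcp4 RNA (upper panel) and its promoter peak (lower panel) in CPM in 8 excitatory labels, with bars for the mean of 2 libraries per strain and points for the libraries. In Exc-DG the RNA is at 84.3 and 78.9 CPM in B6 and 24.3 and 27.1 CPM in D2, while the promoter peak is between 36.6 and 39.3 CPM in all 4 libraries.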

How the data were processed

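Nuclei of B6 and D2 ventral hippocampus were profiled by snRNA-seq (sorted to enrich NeuN-positive nuclei) and snATAC-seq. Per the study's methods, the authors aligned reads with Cell Ranger 6.0.2, introns included, or Cell Ranger ATAC 2.0.0, to mm10 for B6 and to an mm10 with D2 variants for D2. They removed doublets, clustered nuclei and named the labels. The annotation release is not given in the sources used here. Strain and alignment reference cannot be told apart.

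The deposited tables hold raw counts summed by the authors over the nuclei of a label in a library, per gene symbol or per peak. Columns number libraries 2 and 3 where the labels number replicates 1 and 2, so columns were placed by strain only. Left unused were 12 snRNA-seq columns (3 labels) and 28 snATAC-seq columns.

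CPM used the column total. Tests were run with edgeR 4.0.16 (R 4.3.3; TMM, quasi-likelihood, Benjamini-Hochberg over all features, adjusted p under 0.05) after filterByExpr, or for peaks with at least 10 counts. Contrasts between labels had a library term over the 8 excitatory labels, the interaction added label by strain, and strain tests took 1 label at a time. The SE of a log2 fold change was its size divided by the square root of the F statistic of its test. An exact permutation test of 2 against 2 cannot go below p = 0.333. Scripts were tested on simulated data. Coordinates are GENCODE vM21 on GRCm38. DESeq2 1.42.0, RLE, other filters, single libraries left out, symbols counted in both strains, TMM-scaled CPM and a promoter window of 2000 bases before to 500 after were alternatives. The text names the 5 genes, genes of the longer list called higher in Exc-CA3 than in both the CA1 labels and Exc-DG, the 3 genes most alike (for Pcp4 not reported here) and the promoter peaks. Ntf3, Ptpn5, Gsto1 and the peaks outside promoters were named after their values were seen. The 5 genes and the lists were chosen with earlier results of these data known.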

Additional observations from a re-analysis of the deposited data

Results flagged for a closer look

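The Pcp4 strain difference (D2 minus B6) differed between labels by an interaction test in edgeR. It was less negative in Exc-CA3 than in Exc-DG by 1.17 ± 0.27 on the log2 scale (adjusted p = 0.00961), and less negative in the CA1 labels than in Exc-DG by 1.22 ± 0.21 (adjusted p = 0.000188), the second comparison being added after the data were seen. In Exc-DG the B6 values (84.3 and 78.9 CPM) lay above the D2 values (24.3 and 27.1 CPM). In Exc-CA3 they were 10.4 and 12.2 CPM in B6 and 7.52 and 8.67 CPM in D2. With 1 library left out, the first interaction value ran from 0.99 to 1.33 and the second from 0.79 to 1.52. As given above, neither call held in every such fit. Groups of 2 libraries per strain were too small for a search for outlying samples.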

How the results depend on the processing

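The table values were recomputed under each alternative, and 126 of 142 counts of called genes or peaks and highest levels stayed within 1.5 times (or 1 SD) of the reported value. Of 909 single values, 815 kept direction and side of the threshold, 34 fell below it, 11 passed it, 48 changed sign while below it in both fits, and 1 called value reversed. The reversed value was Rgs14 in Exc-CA3 against the other excitatory labels, 0.042 with D2 libraries only. In that comparison 1 gene was called, not 3, with no library term or with D2 libraries only. Between strains, where 5 pairs of gene and label were called, the total was 2 under DESeq2, 3 with symbols counted in both strains and 3 to 9 when a library was left out, pairs not called with all libraries included. In Exc-CA3, 0 to 1 genes were called between strains when a library was left out. For the difference of strain differences, 0 to 1 genes were called on leaving out a library, for Exc-CA3 against Exc-DG and for the CA1 labels against Exc-DG. With RLE normalization 2 promoter peaks, not 4, were called between Exc-CA3 and Exc-DG. Between strains in Exc-DG, 0 promoter peaks were called under DESeq2 and 0 to 1 when a library was left out. The median strain difference of all genes in Exc-CA3 was 0.05 on the log2 scale over the 16337 genes tested, and over 29588 genes with at least 1 count it was 0.15 under DESeq2 and 0.14 under edgeR. The causes of the other changes were not tested.

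The tables' library numbers pair no animals by the labels. Deviations of same-numbered libraries correlated from -0.15 to 0.06 over the 14 labels. With the library number as a replicate block, 6 pairs of gene and label were called between strains in place of 5, and with crossed numbers, added after seeing the data because 1 label lay below -0.1, also 6. Counts limit Cacng5 and Amigo2, each tested between strains in 3 of 14 labels.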
